A study of Mus musculus with 15 samples.

Results

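The last step of a pre-B cell to macrophage conversion was examined through acetylation of histone H3 at lysine 27 (H3K27Ac), by comparing the library taken 24 hr post-induction (hpi) with the library taken at 48 hpi. These were 2 of the 15 ChIP-seq libraries of the series, which covered 3 histone marks at 5 times (0, 3, 12, 24 and 48 hpi), with 1 library for each mark and time. All cells were C10 cells, a clone of a transformed mouse pre-B line that carries C/EBPα fused to the estrogen receptor hormone-binding domain and marked with GFP. Addition of 17 beta-estradiol moves the fusion protein into the nucleus, and cells were grown with the cytokines IL-3 and CSF-1. Cells at 24 hpi and 48 hpi thus shared clone, transgene, hormone and cytokines and differed in the hours of induction. The 48 hpi cells are called induced macrophages (iMΦ) in the study. Results from 1 clone with a transgene describe that clone. With 1 library a side there was no replicate check of any difference, so no p-value was computed. Intervals of single windows cover counting error only, and intervals of medians describe the spread over windows of the same libraries.

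H3K27Ac is placed by the acetyltransferases p300 and CBP on nucleosomes that flank active promoters and enhancers. H3K4Me1 marks enhancers, often before acetylation, and H3K27Me3 is the mark of Polycomb repression. In a pre-B cell the acetylated enhancers include those of Pax5 and Ebf1, the factors that hold B cell identity. In a macrophage they include enhancers bound by PU.1, C/EBP, AP-1 and Runx factors near genes of phagocytosis, lysosomes and inflammation.

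H3K27Ac was read as tags (36-bp sequenced ends, 1 kept per position) in windows of 3 kb, after both libraries were thinned at random to 15.22 M tags. A 3 kb window of the genome held 18.8 tags on average. The starts of all 22350 annotated protein-coding genes gave 22350 windows, of which 11132 had at least 40 tags in both libraries together. Distal windows were set on the highest 1 kb bins of the summed libraries, with centres over 2500 bp from every annotated transcript start. There were 49291 distal windows and 48886 of them reached 40 tags. A change was the log2 ratio of 48 to 24 hpi tags with 5 tags added to each, and a window was called higher or lower when it changed at least 2-fold. The 95% counting intervals given below are of the ratio without the added tags, also as log2. The filter of 40 tags and the 2-fold rule already exclude counting intervals that cover 0, so the intervals are no further check of a call.

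The strongest distal changes are shown first as sequence, because distal windows carried most of the calls. For a window with 1 of the largest rises and the 3 windows with the largest fall, the 300 bases with most tags in the higher library are given, as the plus strand of mouse build mm9 (NCBIM37). None of these 4 windows overlapped an annotated exon. Capitals mark letters of the motifs counted further below, on either strand. These windows are examples, and the motif shares given further below rest on all distal windows. In the rising window, far upstream of Pik3r1, these 300 bases held 2 tags at 24 hpi and 105 at 48 hpi.
Pik3r1 upstream, chr13:102846211-102846510: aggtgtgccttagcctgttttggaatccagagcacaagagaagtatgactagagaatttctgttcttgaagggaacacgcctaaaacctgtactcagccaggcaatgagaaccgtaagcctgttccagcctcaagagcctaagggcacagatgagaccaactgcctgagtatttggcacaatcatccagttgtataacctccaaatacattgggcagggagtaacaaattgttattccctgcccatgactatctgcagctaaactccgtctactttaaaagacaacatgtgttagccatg

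This sequence holds none of the letters searched. Pik3r1 encodes the regulatory subunit of phosphoinositide 3-kinase. In the falling windows the 300 bases held 124 tags at 24 hpi and 15 at 48 hpi (Igf2bp2), 46 and 4 (Dscaml1), and 37 and 1 (Klhl2).
Igf2bp2 intron, chr16:22145018-22145317: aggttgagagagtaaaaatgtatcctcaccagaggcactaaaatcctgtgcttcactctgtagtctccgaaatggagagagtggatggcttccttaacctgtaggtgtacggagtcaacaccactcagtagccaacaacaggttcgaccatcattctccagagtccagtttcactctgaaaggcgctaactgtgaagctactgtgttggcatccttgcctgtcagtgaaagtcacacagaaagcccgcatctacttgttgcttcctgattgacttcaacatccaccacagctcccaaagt
Dscaml1 intron, chr9:45354949-45355248: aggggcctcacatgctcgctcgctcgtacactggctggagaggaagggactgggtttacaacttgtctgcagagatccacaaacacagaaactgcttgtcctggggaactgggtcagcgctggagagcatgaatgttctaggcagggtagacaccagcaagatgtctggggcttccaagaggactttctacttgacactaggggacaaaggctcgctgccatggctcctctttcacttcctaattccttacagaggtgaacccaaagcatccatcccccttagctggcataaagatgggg
Klhl2 upstream, chr8:67421199-67421498: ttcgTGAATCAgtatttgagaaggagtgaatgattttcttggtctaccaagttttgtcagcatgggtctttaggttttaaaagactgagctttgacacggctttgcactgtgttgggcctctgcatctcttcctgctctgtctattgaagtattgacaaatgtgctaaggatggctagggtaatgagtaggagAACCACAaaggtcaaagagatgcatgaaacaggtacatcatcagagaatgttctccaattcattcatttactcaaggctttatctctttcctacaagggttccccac

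The Klhl2 sequence holds 1 match to the AP-1 letters and 1 to the Runx letters (capitals), and the others hold none. Igf2bp2 encodes an RNA-binding protein, Dscaml1 a cell adhesion molecule and Klhl2 an adaptor of a ubiquitin ligase.

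The cells were checked against their label with macrophage and pre-B marker genes. At the starts of 8 macrophage markers the summed H3K27Ac was 758 tags at 0 hpi, 4202 at 24 hpi and 3621 at 48 hpi. At the starts of 8 pre-B markers it was 9902, 5946 and 3433 tags. At equal depth the macrophage sum was thus higher at 24 hpi than at 0 hpi and lower at 48 hpi than at 24 hpi. The log2 change of this last step, -0.21, lay above the median of all gene starts (-0.27). It was also smaller than the shift of 0.26 under a scaling described below, by bins enriched in both libraries, so its direction depended on the scaling. The pre-B sum was lower at each step but not lost at 48 hpi. At equal depth Cd14, the lipopolysaccharide co-receptor, alone among the 8 macrophage markers held more tags at 48 hpi (1259) than at 24 hpi (1040). Csf1r, the CSF-1 receptor, held 479 at 24 hpi and 244 at 48 hpi. The markers with fewest tags were Emr1, the F4/80 antigen, with 9, 54 and 35 tags at 0, 24 and 48 hpi, and Fcgr3, an Fc receptor for IgG, with 44, 33 and 19. Fcgr3 was the 1 macrophage marker of the 8 that held fewer tags at 24 hpi than at 0 hpi. For other lineages, 12 of 16 T lineage starts and 11 of 15 erythroid and megakaryocyte starts stayed under 40 tags. Of the granulocyte granule starts 9 of 18 did, while Mmp8 (1395 and 1219 tags) and Camp (1103 and 994 tags) were among the highest of their list at both times. In these bulk samples, fewer cells with a mark and less mark per cell cannot be told apart.

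The libraries themselves differed, and this touches every direction above and below. The deposited files held 18.56 M tags (24 hpi) and 16.99 M (48 hpi), of which 5.57% and 3.37% repeated a position. At equal depth, 78.1% of the 24 hpi tags and 69.5% of the 48 hpi tags lay in 1 kb bins enriched over the genome mean (at least 16 tags). Bins enriched in neither library held 1.51 times as many tags at 48 hpi as at 24 hpi, and the 122582 bins enriched in both held 0.838 times as many. A scaling by bins enriched in neither shifted the 48 hpi tags by a log2 factor of -0.60, and a scaling by bins enriched in both by 0.26. Because of the tags added to each count, the log2 change of a window moved by less than this factor, and least where tags were few. Whether the difference between the libraries came from the cells or from the immunoprecipitation cannot be told apart with 1 library a side. Calls are therefore given at equal depth and also as the number that passed under all 3 scalings. A segment of the immunoglobulin heavy-chain locus held 523 and 438 tags at 0 and 3 hpi but 1, 0 and 1 at 12, 24 and 48 hpi, so the cells of the first and the later libraries differed there. Values at 0, 3 and 12 hpi are given as a description of where each window came from.

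At equal depth and the same cut of 16 tags, enriched bins covered more of the genome at 48 hpi, at a lower height. Enriched bins joined into 36364 regions spanning 141.9 Mb at 24 hpi and into 42118 regions spanning 169.4 Mb at 48 hpi. The mean was 87.4 tags per enriched bin at 24 hpi and 65.9 at 48 hpi. At 24 hpi 3022 regions (8.31%) met no region of the other library, against 10300 (24.5%) at 48 hpi. Regions of 10 kb or more numbered 2944 and 3700. Regions were not recounted under the other scalings. The part in these counts of the 1.51-fold tags at 48 hpi in bins enriched in neither library was not tested. The longest was 134 kb over Irf2, an interferon regulatory factor, at 24 hpi, and 329 kb over Foxp1 and Eif4e3 at 48 hpi. Most of the Foxp1 stretch was not newly enriched, because at 24 hpi 314 of its 329 kb were already enriched in 7 pieces. Its tags went from 36916 to 34422 at equal depth. This log2 change of -0.10 is smaller than the shift of 0.26 when scaled by bins enriched in both, so its direction depended on the scaling.

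At equal depth few gene starts changed 2-fold. Of the 11132 gene starts, 141 were called higher at 48 hpi (1.27%) and 369 lower (3.31%), and 10622 changed less than 2-fold. The median tag number was 274 at 24 hpi and 220 at 48 hpi, and the median log2 change was -0.27 (interval of the median -0.28 to -0.26). The higher calls made up 27.6% of all calls at equal depth, 0.690% when scaled by bins enriched in neither (25 higher, 3598 lower) and 70.1% when scaled by bins enriched in both (277 higher, 118 lower). More starts were called higher than lower also in 6 kb windows (298 and 275), without the filter of 40 tags (839 and 409) and at 3-fold (29 and 25). Under all 3 scalings 25 gene starts were called higher and 115 lower. Because a scaling moves all windows in 1 direction, groups of genes are read below against the median of all gene starts. Windows with few tags move less, and the gene starts with 40 tags numbered 10850 and 11255 under the other scalings.

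The change also followed the level. In 5 equal groups by summed tags, from low to high, the median log2 change at gene starts was 0.00, -0.23, -0.28, -0.34 and -0.36, and of the 141 higher calls 114 fell in the lowest group. Distal windows went from 0.38 in the lowest group through 0.33, 0.17 and -0.11 to -0.36 in the highest. The median thus decreased with the level in both kinds of window, and at gene starts no group had a median above 0. Distal windows were chosen on summed tags, and 38085 bins were enriched at 48 hpi only against 13420 at 24 hpi only. The part of this choice in the distal medians was not tested.

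**Figure D1:**
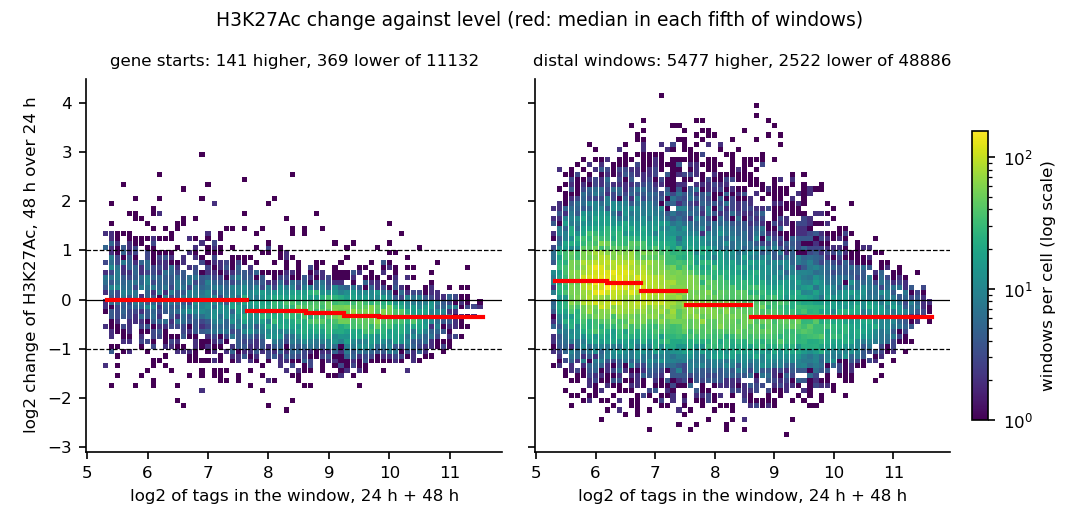
Density of gene starts (left) and distal windows (right) by log2 of summed tags (x axis) and log2 change from 24 to 48 hpi (y axis), with colour for the number of windows on a log scale. Dashed lines mark 2-fold and red bars the median of each of 5 equal groups by summed tags, which runs from 0.00 to -0.36 at gene starts and from 0.38 to -0.36 in distal windows.

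The 10 gene starts with the largest rise came from low levels, at 5 to 46 tags at 24 hpi. Itih2 (chr2:10051523-10054522), a heavy chain of the inter-alpha-trypsin inhibitor family, held 9, 7, 9 and 10 tags up to 24 hpi and 113 at 48 hpi (log2 change 2.98, counting interval 2.57 to 4.60). Its rise came only in the last day, and H3K4Me1 there went from 12 to 72 tags. Serpinb2 (chr1:109406500-109409499), the plasminogen activator inhibitor made by activated macrophages, held 6, 13, 21, 46 and 285 tags at the 5 times and rose by a log2 change of 2.51 (2.18 to 3.11). Spp1 (chr5:104862637-104865636), which encodes osteopontin, held 8, 5, 8 and 18 tags and then 109, a change of 2.31 (1.87 to 3.41). Both secreted proteins belong to stimulated macrophages, and their starts were at or near background until 12 hpi.

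Other starts in this group were less tied to macrophages. Bpifc, of the lipid-binding BPI fold family, went from 28 to 172 tags (2.42), Msmb, a secreted microseminoprotein, from 20 to 101 (2.08), and Degs2, a sphingolipid desaturase, from 5 to 45 (2.32). Defb45, a beta-defensin, went from 8 to 48 tags (2.03) and the predicted gene Gm17583 from 11 to 62 (2.07). At Itih2, Bpifc, Msmb, Gm17583 and Defb45 H3K4Me1 rose at least 2-fold as well, with log2 changes of 2.18, 1.57, 1.86, 1.25 and 1.24. At Serpinb2 it went from 50 to 33 tags (-0.53), and its log2 changes were smaller than 2-fold at Fut1 (0.09), Fgf21 (0.33), Spp1 (0.34) and Degs2 (0.45). Fgf21, a hormone induced by metabolic stress, went from 13 to 83 tags (2.29) and Fut1, a fucosyltransferase gene whose start lies 2116 bp away, from 7 to 66 (2.56). Their windows overlap on chromosome 7 and share tags. These 2 starts stood apart from the rest of the group in having been high at 0 hpi, with 316 tags at Fgf21 and 218 at Fut1, before they dropped to 36 and 38 tags at 3 hpi. Of these 10 starts 8 stayed called under all 3 scalings, and Degs2 and Defb45 did not.

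The 10 largest falls began at 76 to 315 tags. Itgb3 (chr11:104467870-104470869), the integrin β3 chain, held 81, 273, 242 and 211 tags up to 24 hpi and 44 at 48 hpi (-2.14, interval -2.76 to -1.79). Adipoq (chr16:23145109-23148108), known as the fat cell hormone adiponectin, held 15, 266, 291 and 271 tags and then 61 (-2.06, interval -2.58 to -1.75). At both starts acetylation that had risen by 3 hpi was mostly gone at 48 hpi.

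Most of these 10 starts had gained tags before they fell, but the 369 lower starts as a whole had not. Their median tags at the 5 times were 308, 320, 314, 293 and 122, and 193 of them (52.3%) held more tags at 24 hpi than at 0 hpi, against 5861 of all 11132 gene starts. Cldn14, a claudin of tight junctions, held 5, 82 and 15 tags at 0, 24 and 48 hpi (-2.12), and the predicted gene Gm16372 held 6, 297 and 85 (-1.75). Fyb, an adaptor of immune receptor signalling, held 6, 76 and 14 tags (-2.09), and Gm813 6, 98 and 23 (-1.88). Olfr433, an olfactory receptor gene, held 66, 191 and 49 tags (-1.86). Only Bcor, the BCL6 co-repressor (448, 315 and 89 tags, -1.77), and the histone gene Hist1h3g (381, 93 and 23 tags, -1.81) had more tags at 0 hpi than at 24 hpi among the 10. All 10 falls were called under all 3 scalings. The Hist1h3g window overlaps that of Hist1h2af, whose start is 1516 bp away.

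**Figure D2:**
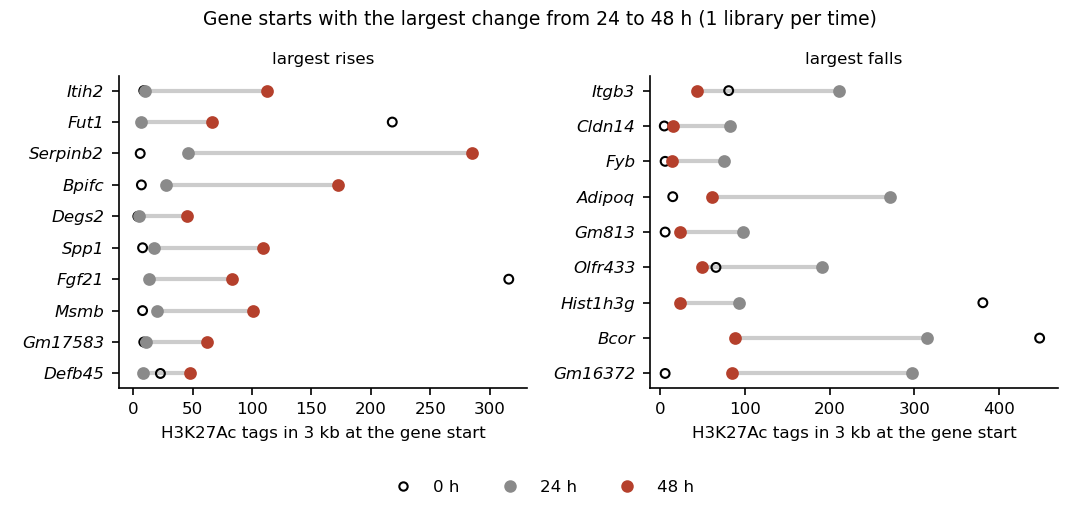
H3K27Ac tags per 3 kb window at the 10 gene starts with the largest rise and 9 of the 10 with the largest fall, at 0 hpi (open), 24 hpi (grey) and 48 hpi (red). Rising starts lie at 5 to 46 tags at 24 hpi, and Fgf21 and Fut1 alone among them were high at 0 hpi, with 316 and 218 tags.

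At genes of macrophage function few starts changed 2-fold. Among 32 receptor starts with at least 40 tags, 1 was called higher (3.13%, against 1.27% of all gene starts) and 2 lower (6.25%, against 3.31%), with a median of -0.32. Clec4d, a C-type lectin that binds mycobacterial lipid, held 2, 11, 77, 482 and 1002 tags at the 5 times, a log2 change of 1.05 (0.90 to 1.22). Fcgr1, the high-affinity IgG receptor, rose to 471 tags by 24 hpi and held 197 at 48 hpi (-1.24), and Ccr2, the CCL2 receptor, held 231 and 104 (-1.11). None of these 3 calls held under all 3 scalings. Plaur, the urokinase receptor (1054 and 737 tags), and Tyrobp, the DAP12 signalling adaptor (983 and 776), held most tags of the list and changed less than 2-fold.

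Lysosomal genes had a similar median, with 2 higher (5.56%, against 1.27% of all gene starts) and 1 lower (2.78%, near the 3.31% of all) of 36 and a median of -0.41. Lyz1, a lysozyme gene (44 and 96 tags, 1.04), and Ctsk, encoding cathepsin K (40 and 91 tags, 1.09), were higher, and Psap, encoding prosaposin (742 and 342 tags, -1.11), was lower, and none of these 3 calls held under all 3 scalings. The cathepsin genes Ctsc (1217 and 863 tags) and Ctsz (1340 and 709) changed less. Among 24 Toll-like receptor and sensor starts no member reached 2-fold in either direction. Nlrp3, the inflammasome sensor, held 1278 and 1303 tags and Tlr4, the lipopolysaccharide receptor, 1227 and 1165. The 5 starts of the NADPH oxidase of phagocytes did not reach it either, with Cyba at 1011 and 598 tags.

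Cytokine and chemokine genes moved in both directions. Of 26 starts 3 were called higher and 3 lower (11.5% each, against 1.27% and 3.31% of all gene starts), with a median of 0.00 against -0.27 over all gene starts, and that median was -0.63 and 0.26 under the other scalings. Beside Spp1, the neutrophil chemokines Cxcl2 (4, 4, 11, 26 and 112 tags, log2 change 1.92, interval 1.48 to 2.78) and Cxcl3 (21 tags at 24 hpi and 73 at 48 hpi, 1.58) were higher. The monocyte chemokines Ccl2 (3, 17, 71, 303 and 113 tags, -1.38, interval -1.75 to -1.11), Ccl12 (109 and 37, -1.44) and Ccl7 (70 and 32, -1.02) were lower. All of these calls but that of Ccl7 held under all 3 scalings. Il6 (370 and 743 tags) lay just under the 2-fold call. Il1b held 908 and 884 tags and Il23a 913 and 944, the highest levels in the list.

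Among transcription factors of the myeloid lineage 1 start was higher (4.35%, against 1.27%) and 2 were lower (8.70%, against 3.31%) of 23, with a median of -0.35. Hif1a, the oxygen-regulated factor, went from 42 to 99 tags (1.15), a call that did not hold under all scalings. Runx1, a regulator of hematopoietic commitment, held 924, 909, 792, 719 and 251 tags at the 5 times, a change of -1.50 (-1.73 to -1.31) that held under all scalings, and Nr4a1, an orphan nuclear receptor, held 325 and 153 (-1.06), which did not. Sfpi1, the gene of PU.1, kept 1524 and 1177 tags and Klf6 1021 and 850. The 9 genes of AP-1 subunits had no call, with Jun at 1091 and 820 tags and Fosl2 at 824 and 868, and their median of -0.12 was above that of all gene starts.

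B lineage factors had lower calls and a median below that of all gene starts. Of 19 starts none was called higher and 5 lower (26.3%, against 3.31% of all gene starts), with a median of -0.65 against -0.27 over all gene starts (-1.27 against -0.86 and -0.40 against -0.02 under the other scalings). Myb, a factor of lymphoid progenitors, held 765, 1024, 463, 271 and 96 tags at the 5 times, a change of -1.45 (-1.85 to -1.16). Irf4 held 262 and 105 tags (-1.28), Ikzf3, the Aiolos gene, 134 and 59 (-1.12), Lef1 474 and 217 (-1.11) and Pax5 582 and 274 (-1.07). The calls of Myb and Irf4 held under all 3 scalings. Pou2af1 (898 and 569 tags) and Ikzf1, the Ikaros gene (782 and 442), stayed within 2-fold. Pax5 therefore still held many times the genome mean at 48 hpi.

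Genes of the pre-B receptor, its signalling and recombination had 2 lower calls (7.41%, against 3.31% of all gene starts) and none higher of 27, with a median of -0.45. Igll1, a surrogate light chain, held 1520, 1522, 1360, 1071 and 467 tags (-1.19, interval -1.36 to -1.04), and Cd24a held 658 and 310 (-1.07). Neither call held under all 3 scalings. Cd93 (1311 and 1040 tags) and the kinase gene Lyn (1112 and 912), both also used by myeloid cells, held most tags of the list.

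Genes of proliferation also had several lower calls. Of 38 cell cycle and DNA replication starts 6 were lower (15.8%, against 3.31% of all gene starts) and none higher, with a median of -0.43 against -0.27. This median lay between those of 2 reference lists, genes that every cell uses (-0.55) and cytoplasmic ribosomal protein genes (-0.18). Ccnd1, the gene of cyclin D1, held 661, 680, 304, 442 and 145 tags (-1.58, interval -1.89 to -1.33), and Ccnd2 held 245 and 94 at 24 and 48 hpi (-1.34). Aurkb, the Aurora B kinase gene, held 680 and 276 tags (-1.29) and Mki67, the gene of the Ki-67 antigen, 352 and 149 (-1.21). These 4 were joined by Cdk1 (262 and 112, -1.19) and Rrm2 (225 and 98, -1.16), and Ccnd1, Ccnd2 and Aurkb were called under all 3 scalings. E2f1 (1054 and 605 tags) and Cdt1 (850 and 714) changed less.

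The replication-dependent histone genes, whose mRNA is made in S phase, were added as a list after their values were seen, so they are a description. Of 57 starts 16 were lower (28.1%, against 3.31% of all gene starts) and none higher, and the median was -0.84, the lowest of the lists. Beside Hist1h3g, Hist1h1a held 298, 372, 231, 198 and 60 tags (-1.64), Hist1h4f 212 and 90 at 24 and 48 hpi (-1.19), and Hist1h1d 283 and 123 (-1.17). Of the 16 calls 2, Hist1h3g and Hist1h1a, held under all 3 scalings. Many of these genes lie close together, so their windows are not independent, and tags without a unique place were dropped by the authors. Near the histone genes 9 of 33 distal windows (27.3%) were lower too, against 5.16% of all distal windows.

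In the remaining lists 0 to 2 members were called in each direction, to be read against 1.27% higher and 3.31% lower over all gene starts. Lipid genes had 2 lower of 20 (Abcg1, a cholesterol exporter, 293 and 108 tags, -1.40, and Scd2, a fatty acid desaturase, 948 and 418, -1.17), interferon response genes 2 lower of 25 (among them Zbp1, 207 and 97), and MHC class II and costimulation genes 2 lower of 14 (Cd40, 178 and 69 tags, -1.31, and H2-Ob, 220 and 89, -1.26). Granule genes of granulocytes had 1 higher, Lcn2 (41 and 95, 1.12), and 2 lower of 9, Elane (148 and 66, -1.11) and Prtn3 (221 and 101, -1.09), both of which are early promyelocyte proteases. Matrix metalloproteinases had no call of 7, with Mmp9 at 337 and 494 tags and Mmp12 at 680 and 377. T lineage genes had none of 4, with Gata3 at 544 and 454 tags, and Gp1ba (18 and 44 tags, 1.09) was the 1 call of 4 erythroid and megakaryocyte starts. The lists' medians were -0.47 for lipid, -0.59 for interferon, -0.50 for MHC class II, -0.19 for granule, 0.26 for metalloproteinase, -0.11 for T lineage and 0.52 for erythroid and megakaryocyte genes. That of the metalloproteinases turned to -0.32 when scaled by bins enriched in neither, and those of the granule and T lineage genes to 0.06 and 0.13 when scaled by bins enriched in both. Of the calls in this paragraph those of Abcg1, Cd40 and H2-Ob held under all 3 scalings.

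As references, genes that every cell uses had 2 lower of 18 (11.1%, against 3.31% of all gene starts), Tuba1b (608 and 281) and Tbp (472 and 229), and a median of -0.55, with Actb at 1295 and 882 tags. Cytoplasmic ribosomal protein genes had 1 lower of 76 (1.32%), Rpl13a (178 and 85), and a median of -0.18. Of 1113 olfactory receptor starts, silent in most cells, 1098 stayed under 40 tags, and 2 of the other 15 were lower (13.3%), Olfr433 and its neighbour Olfr432 (119 and 40). Of 16 tested genes the study uses as examples only Cd40 was called, and their median was -0.36. The medians of these reference lists of active genes lay on either side of that of all gene starts.

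**Figure D3:**
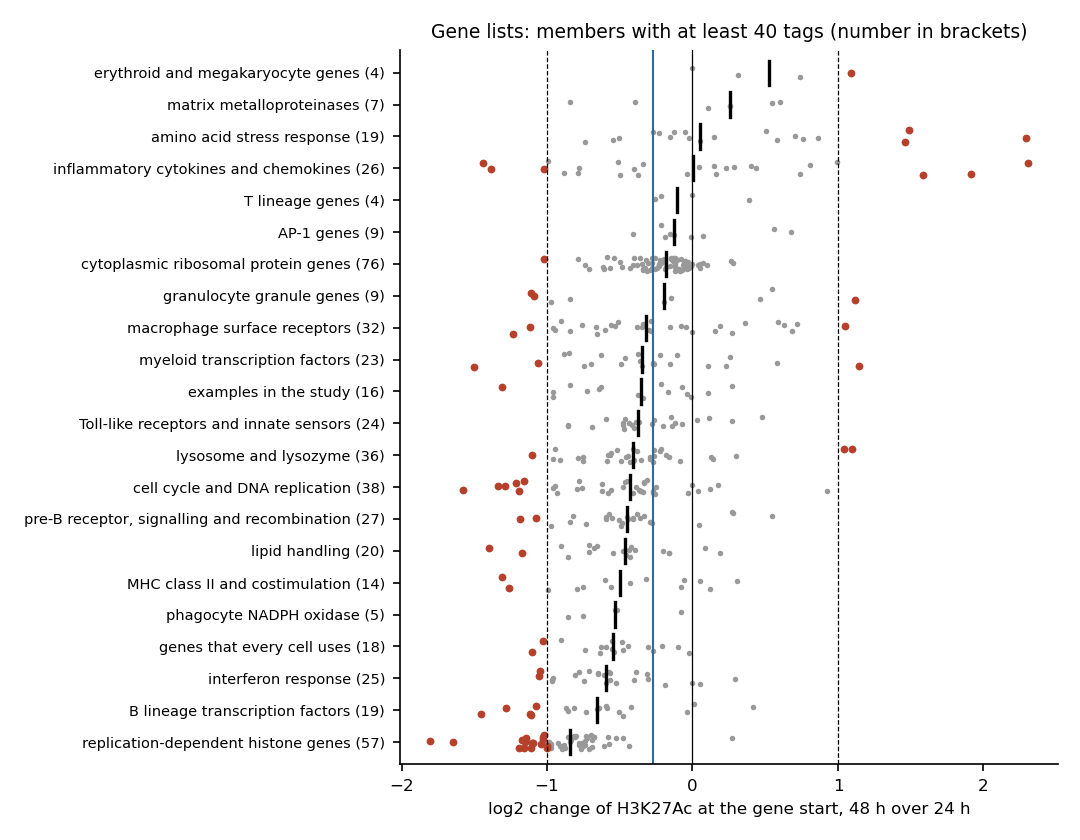
Log2 change from 24 to 48 hpi at each gene start with at least 40 tags, by list, with called starts in red and list medians as black bars. The blue line is the median of all gene starts (-0.27) and dashed lines mark 2-fold. The histone list has the lowest median (-0.84) and B lineage factors the next lowest (-0.65).

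Genes of the amino acid stress response too were listed after values were seen, prompted by Fgf21, and are a description. These genes are targets of ATF4, the factor translated when amino acids run short. Of 19 starts 3 were called higher (15.8%, against 1.27% of all gene starts) and none lower. The median was 0.06, against -0.27 over all gene starts, and it was -0.54 and 0.31 under the other scalings. Asns, the asparagine synthetase gene, held 378 tags at 0 hpi, 90 at 24 hpi and 257 at 48 hpi (1.46, interval 1.16 to 1.88). Cth, encoding the enzyme that makes cysteine from cystathionine, held 281, 41 and 124 (1.49, interval 1.08 to 2.14). Fgf21 was the third, and only its call held under all 3 scalings.

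Of the 19 starts 10 held fewer tags at 24 hpi than at 0 hpi and more at 48 hpi than at 24 hpi, 6 held fewer at 24 hpi than at 0 hpi without more at 48 hpi, and 3 did not hold fewer at 24 hpi. The first course was taken by 1255 of all 11132 gene starts (11.3%). Trib3, a pseudokinase gene, held 915 tags at 0 hpi, 432 at 24 hpi and 791 at 48 hpi (0.87). Mthfd2 and Shmt2, of mitochondrial one-carbon metabolism, held 540, 356 and 607 (0.76) and 695, 190 and 287 tags (0.58). Pck2 held 800, 317 and 519 (0.70) and Chac1 793, 396 and 565 (0.51). These 5 were among the 10. Others were not, with Atf4 itself at 706, 881 and 752 tags, Ddit3 at 1285, 1065 and 975, and the transporter genes Slc7a5 (623 and 426 tags at 24 and 48 hpi) and Slc3a2 (563 and 335, -0.74).

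ATF4 pairs with C/EBP proteins on a composite element that contains the letters TGATGCAA. These letters are shown with 26 bases on each side (capitals) at 3 places: a distal window 6048 bp from the Trib3 start, which held 139 tags at 0 hpi, 68 at 24 hpi and 297 at 48 hpi (2.05), with H3K4Me1 at 79 and 158, and the Fgf21 start, 135 and 1023 bp from the annotated 5′ end. The second Fgf21 place lies also in the Fut1 window. The letters were sought over 3 kb at the listed starts called higher. They were also sought in the central 1 kb of the 11 higher distal windows nearest to listed genes. These 3 places were the only matches, so the Asns and Cth starts and the other distal windows held none. Of all higher distal windows 7.98% held the letters.
Trib3 distal, chr2:152175787-152175846: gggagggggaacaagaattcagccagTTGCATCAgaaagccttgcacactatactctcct
Fgf21, near the start, chr7:52870966-52871025: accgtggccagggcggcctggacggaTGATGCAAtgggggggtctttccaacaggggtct
Fgf21, farther upstream, chr7:52871854-52871913: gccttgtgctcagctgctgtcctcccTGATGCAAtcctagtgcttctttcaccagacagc

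The Trib3 match is on the minus strand and so reads as the reverse complement. None of the 3 stretches overlaps an exon. A match of letters is a description of the sequence and not a bound site.

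Of 48886 distal windows 5477 were called higher at 48 hpi (11.2%) and 2522 lower (5.16%), with a median of 63 tags at 24 hpi, 73 at 48 hpi and a median log2 change of 0.096 (interval 0.087 to 0.10). Higher windows made up 68.5% of calls at equal depth, 12.9% when scaled by bins enriched in neither (1588 higher, 10680 lower) and 88.2% when scaled by bins enriched in both (8653 higher, 1162 lower). Under all 3 scalings 1588 were higher and 1156 lower. At equal depth 16.4% of distal windows and 4.58% of gene starts were called, and the distal share was also the larger when scaled by bins enriched in both. When scaled by bins enriched in neither the shares were 26.1% and 33.4%, so which kind changed more often depended on the scaling. The share of called windows grew with distance from genes. Over 10, 50 and 100 kb from any transcript start, 12.6%, 14.8% and 17.6% were higher and 5.71%, 7.07% and 7.76% lower. Windows inside genes were higher in 10.6% and lower in 3.36%, and windows between genes in 12.2% and 8.21%.

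The 2 classes differed in level before 24 hpi. Windows called higher had median H3K27Ac of 12, 15, 20, 25 and 75 tags at 0, 3, 12, 24 and 48 hpi, near the genome mean of 18.8 until 12 hpi. Windows called lower had medians of 92.5, 120.5, 185, 211 and 82 tags, and all distal windows 30, 35, 52, 63 and 73. The medians of both classes and of all distal windows rose from 0 to 24 hpi, so an earlier rise did not set the lower class apart. At 0 hpi 65.2% of the higher windows were enriched for neither H3K27Ac nor H3K4Me1, against 504 of the 2522 lower windows and 31.3% of all distal windows. Both marks were present at 0 hpi in 14.4%, 65.7% and 48.2%. At 0 hpi most higher windows were thus unmarked and most lower windows already marked. A higher call favours windows low at 24 hpi and a lower call windows high there, so the earlier levels are not independent of the calls. From the lowest to the highest of 5 groups by summed tags, the higher share went from 16.3% to 4.05%. The lower share went from 2.11% to 9.95%. Windows of matched 24 hpi level were not compared, so the part of the call rule in these shares was not tested.

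**Figure D4:**
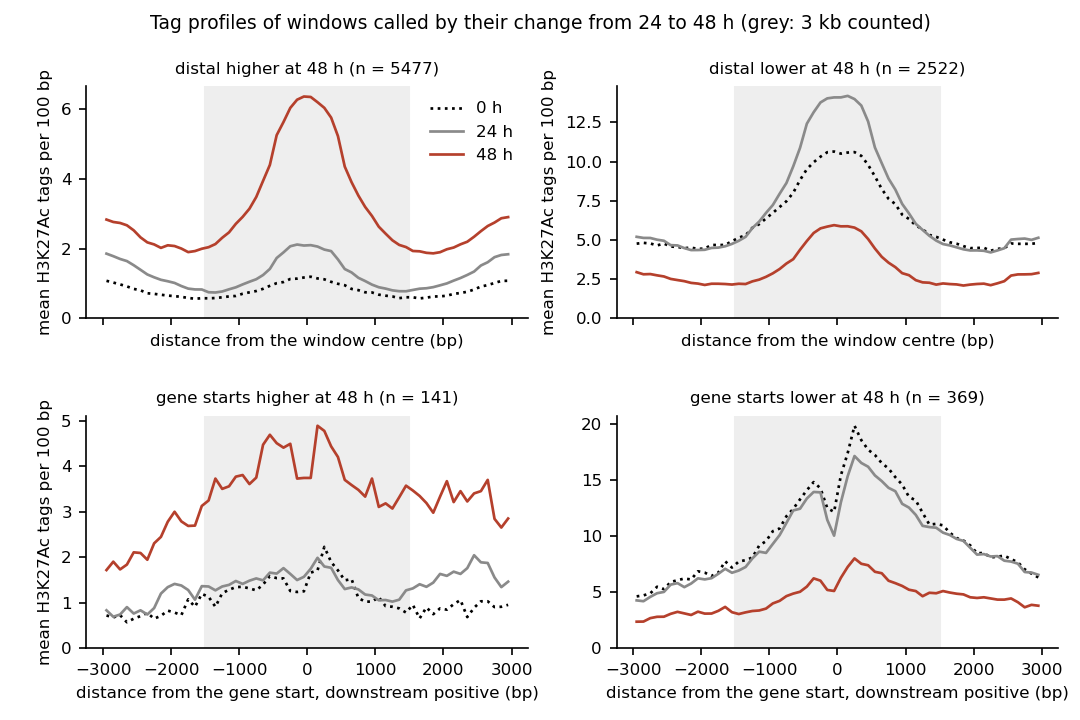
Mean H3K27Ac tags per 100 bp around the centre of distal windows called higher (n = 5477) and lower (n = 2522), and of gene starts called higher (n = 141) and lower (n = 369), at 0, 24 and 48 hpi, against distance in bp. Grey marks the 3 kb counted. In the lower distal windows the 24 hpi line is the highest of the 3, and in the higher ones 0 and 24 hpi stay low.

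The 10 distal windows with the largest rise held 3 to 31 tags at 24 hpi and 91 to 451 at 48 hpi. A window 308328 bp upstream of Pik3r1 (chr13:102845001-102848000) held 9, 13, 18 and 21 tags up to 24 hpi and 398 at 48 hpi (3.95, interval 3.61 to 4.95). H3K4Me1 there went from 35 to 92 tags. The Pik3r1 start itself held 568 and 528 tags and 14 of 35 distal windows nearest to it were called higher, so the gain lay far from the promoter.

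Further large rises were a window in D630013G24Rik on chromosome 3 (31 and 451 tags, 3.66) and windows nearest to Etv1, an ETS factor gene (4 and 109, 3.66), Slc39a10, a zinc importer gene (12 and 204, 3.62), and Ndst3, of heparan sulfate synthesis (12 and 203, 3.61). Windows nearest to Mettl4 (3 and 91, 3.58), Pnpla8, a phospholipase gene (8 and 149, 3.57), and Ngly1, the glycanase gene (9 and 159, 3.55), followed. All 10 were called under all 3 scalings, and all had 1 to 21 tags at 0, 3 and 12 hpi. H3K4Me1 was higher at 48 hpi in each of the 10, with log2 changes of 0.94 to 2.68. The nearest start was up to 746859 bp away, so nearest is a statement of position only.

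The 10 largest distal falls held 108 to 502 tags at 24 hpi and 13 to 72 at 48 hpi. The intronic Igf2bp2 window (chr16:22144001-22147000) held 7, 109, 201, 502 and 72 tags at the 5 times, a change of -2.72 (-3.18 to -2.44). The Dscaml1 window (chr9:45354001-45357000) held 168 and 22 tags at 24 and 48 hpi (-2.68), and the window 47784 bp upstream of Klhl2 (chr8:67420001-67423000) 108 and 13 (-2.65). H3K4Me1 stayed largely in place at the Igf2bp2 and Dscaml1 windows, at 235 and 177 and at 171 and 137 tags, and was 151 and 75 at Klhl2.

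Next came a window 38739 bp upstream of Pparg, the lipid-sensing nuclear receptor gene (314 and 46 tags, -2.64), and a window in Clec12a, an inhibitory lectin gene (260 and 38, -2.62). The latter overlapped 2 exons. Windows nearest to Agps (188 and 27, -2.59), Thap1 (150 and 21, -2.58), Gm16378 (260 and 40, -2.56), Fam49a (279 and 46, -2.48) and Lrrc17 (312 and 52, -2.48) completed the group. Each of the 10 had more tags at 24 hpi than at 0 hpi, and each was called under all 3 scalings. H3K4Me1 was lower at 48 hpi in all 10, by log2 changes of -0.14 to -1.26.

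Called windows were counted by the gene nearest to them, to be read against 11.2% higher and 5.16% lower of all distal windows. The genes named are the extremes by count, and whether calls gathered near genes was not tested. The genes nearest to the largest numbers of higher windows were Btg1, an antiproliferative gene (21 of 51), Cntnap5b, a neuronal adhesion gene (21 of 30), and the predicted gene Gm5528 (18 of 35). Their starts held 557 and 603, 6 and 16, and 9 and 24 tags, so Cntnap5b and Gm5528 had little H3K27Ac at their starts. Rgs1, a regulator of G protein signalling whose case was picked after values were seen, had 11 of 13 windows higher and a start that went from 212 to 437 tags (1.03). Among lower windows Fam49a was nearest to the largest number (11 of 30, start 136 and 70 tags), and Amigo2 (10 of 29, start 182 and 118) and Prdm1, the Blimp-1 gene (10 of 35, start 193 and 86), were nearest to 10 each. Neighbouring windows are not independent counts.

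Distal windows were also counted by the listed gene nearest to them. Spp1, whose start was called higher, had all 7 of its windows higher, and cytokine genes as a list 27 of 148 (18.2%) against 11.2% of all distal windows, with 3 each near Il1b, Il6 and Ptgs2, and 12 (8.11%) were lower against 5.16%. T lineage genes had 8 of 32 windows higher, of which 4 lay near Gata3, and 1 lower. Tlr4, whose start changed less than 2-fold, had 6 of 27 windows higher. Its list had 11 higher (9.09%) and 3 lower (2.48%) of 121. Zeb2 had 10 of 68 higher, and the myeloid transcription factors as a list 38 higher and 38 lower of 402 (9.45% each). The counts of single genes and lists here are to be read against 11.2% higher and 5.16% lower of all distal windows. Lower windows lay near Pparg (8 of 10), Runx1 (8 of 70, with 3 higher), Batf3 (5 of 7), Irf4 (5 of 22), Bach2 (4 of 8), Ccnd3 (5 of 14) and Ifngr1 (5 of 16). B lineage factors had 11 higher (3.02%) and 21 lower (5.77%) of 364 windows, against 11.2% and 5.16% of all distal windows, so their lower share was near that of all windows. Interferon genes had 1 higher (1.52%) and 7 lower (10.6%) of 66. Amino acid stress genes had 11 higher (13.9%, near the share of all windows) and 1 lower (1.27%) of 79, and 4 of the 11 were among the 6 windows near Cth.

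Gene starts were grouped by the called distal windows nearest to them. Gene starts with no called distal window nearest to them (8102) had a median of -0.27. Those with 3 or more higher windows and none lower (323) had a median of -0.14, and 5.26% of them were called higher and 0.619% lower. Those with 3 or more lower windows and none higher (96) had a median of -0.66, and 28.1% were called lower. The same libraries made both values, so this is a description of how far a change extended around a gene.

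H3K4Me1 was read in separate libraries, which had no part in the calls, at 10.91 M tags each. In distal windows called higher its median went from 37 tags at 24 hpi to 67 at 48 hpi, a median log2 change of 0.68 (0.66 to 0.70), and 90.4% were above 0. In windows called lower it went from 125 to 99 tags, with a median of -0.29 (-0.30 to -0.28), and 13.4% were above 0. Over all distal windows the median was -0.016. Of the higher windows 1686 (30.8%) rose at least 2-fold in H3K4Me1 and 8 fell as much, against 4.89% rising over all distal windows. Of the lower windows 28 (1.11%) fell at least 2-fold, against 0.376% of all distal windows.

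The H3K4Me1 change followed the H3K27Ac change in steps. Where H3K27Ac was at least 4-fold higher the median H3K4Me1 change was 1.23 (743 windows), and at 2 to 4-fold higher it was 0.61. Where H3K27Ac was 2 to 4-fold lower it was -0.29, and at 4-fold lower or more -0.33 (83 windows). H3K4Me1 thus rose with acetylation but fell less where acetylation was reduced. The lower windows were still acetylated, with a median of 82 H3K27Ac tags at 48 hpi against 73 over all distal windows. The higher windows rose from a median of 25, so the 2 classes are not mirror images. H3K27Me3 had medians of 13 and 13 tags in higher windows, 9 and 11 in lower windows and 8 and 10 over all distal windows.

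Motif letters were sought in the central 1 kb of each distal window on both strands, with letters chosen after values were seen. The AP-1 letters TGANTCA were present in 49.1% of higher windows, 17580 of all 48886 windows and 29.6% of lower windows. The letters TGATGCAA of the ATF4 and C/EBP element, which include one side of the C/EBP letters and overlap them, were in 7.98%, 3.77% and 3.33%. Among windows called under all 3 scalings the shares were 54.0% and 29.2% (higher and lower) for AP-1 and 11.6% and 3.03% for TGATGCAA. The PU.1 letters GAGGAAGT went the other way, with 9.29% of higher, 12.5% of all and 15.2% of lower windows.

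C/EBP letters (TTGCNNAA) were in 39.2% of higher, 36.7% of all and 42.3% of lower windows. Their order turned to 41.7% of higher and 39.0% of lower windows with calls scaled by bins enriched in neither, and to 46.0% and 41.3% in the highest group by summed tags. Runx letters (TGTGGTT) were in 23.6% of higher and 29.1% of lower windows, and STAT letters (TTCNNNGAA) in 28.0% and 33.8%. Ebf1 letters (CCCNNGGGA) were in 11.4% and 16.6%. Their order turned to 11.9% and 8.57% in the lowest group by summed tags. It was 9.74% and 8.93% in windows enriched for neither H3K27Ac nor H3K4Me1 at 0 hpi. Interferon response letters (GAAANNGAA) were in 31.2% and 33.2%, NF-kB letters (GGGANTTTC) in 3.56% and 4.16% (3.34% and 3.20% among windows called under all 3 scalings), and the GC box (GGGCGG) in 9.66% and 15.2%. The median GC content was 43.9% in higher and 45.7% in lower windows. The AP-1 share was higher and the PU.1 share lower in higher windows within each of 5 equal groups by GC content and by summed tags. TGATGCAA kept its direction in each group by GC content, while in the lowest group by summed tags the shares were close (6.45% and 6.19%). At gene starts, over the 3 kb window, AP-1 letters were in 65.2% of higher, 49.8% of all and 52.8% of lower starts, and TGATGCAA in 11.3%, 6.25% and 5.96%.

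**Figure D5:**
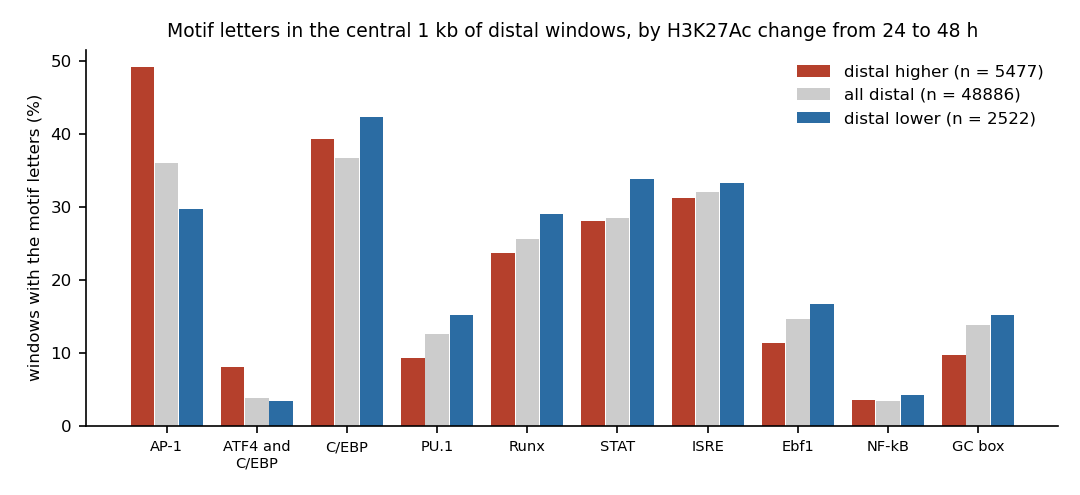
Percent of distal windows whose central 1 kb holds each set of motif letters, for windows called higher, all windows and windows called lower. AP-1 letters (49.1% of higher and 29.6% of lower windows) and TGATGCAA (7.98%, 3.77% and 3.33%) are most frequent in the higher windows, and PU.1 letters (9.29%, 12.5% and 15.2%) in the lower.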

How the data were processed

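H3K27Ac, H3K4Me1 and H3K27Me3 ChIP-seq was made in C10 cells with 1 library per mark and time. The authors deposited 1 line per aligned 36-bp tag on mm9 without strand, so each line was taken as 1 tag count. They aligned with Eland or Bowtie, without mismatches, kept unique tags and removed identical ones, and which aligner made which library is not given in the sources used here. Positions still repeated (at most 2 tags each in the H3K27Ac files) were kept at 1 tag, and repeats removed in this way lower the highest windows most. Without strand, 2 tags at 1 position on opposite strands could not be told from copies. The 24 hpi file is ordered from chromosome 1 and ends with 2 lines without a position, the 48 hpi file from chromosome 2, and the part of this in the results was not tested. Chromosomes 1 to 19 and X were used. H3K27Ac libraries were thinned with seed 1 to 15.22 M tags, the distinct positions of the 0 hpi library, H3K4Me1 to 10.91 M and H3K27Me3 to 15.34 M. Tag middles (18 bp from the start) were counted in 3 kb windows. Gene starts came from GENCODE vM1 (22350 protein-coding genes, 86803 transcript starts, NCBIM37), and 2716 gene start windows overlapped a neighbour. Distal windows were 3 kb, placed without overlap on 1 kb bins whose summed tags passed a Poisson upper tail of 0.001 (at least 26 tags). The change was log2((48 hpi + 5)/(24 hpi + 5)), for at least 40 tags in both together, and a call needed 2-fold. Exact conditional binomial intervals (95%) cover counting error only, and PCR copies are not independent molecules.

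Named were the 10 largest rises and falls of each window kind, in each list up to 4 called members with the largest change and up to 2 uncalled members with most tags, and the genes nearest to most called windows. The lists, the libraries compared and the tests were chosen with earlier results of these data known, and amino acid stress genes, histone genes, motif letters and the other members given for these genes were picked after values were seen. Some named windows and genes are not reported here. The rank-sum test of the study runs across regions, which are not replicates, and was not used. Counting, window placement, calls and counting intervals were tested on simulated data, and thinning was not. Python 3.11.15, numpy 2.4.6, scipy 1.17.1, pandas 2.3.3 and matplotlib 3.10.9 were used. The alternatives were scaling, window size, pseudocount, filter, fold, distance, enrichment, repeated tags, seed and choice of start.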

Additional observations from a re-analysis of the deposited data

How the results depend on the processing

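Scaling, window size, the fold of a call and the filter moved the number of calls, and scaling, window size and filter turned some medians. Scaled by bins enriched in neither library, gene starts had 25 higher and 3598 lower calls and a median of -0.86, and distal windows 1588, 10680 and a reversed median of -0.47. For H3K4Me1 the equal-depth calls were kept and only its own libraries were rescaled in this way. Its medians were then -0.079 (all), 0.62 (higher) and -0.35 (lower). Scaled by bins enriched in both, gene starts had 277 and 118 calls and a median of -0.018, and distal windows 8653, 1162 and 0.34. H3K4Me1, again rescaled in windows of the equal-depth calls, had medians of 0.040 (all, reversed), 0.74 and -0.23. With 1 kb windows there were 55 higher gene starts and 3497 higher distal windows, the distal median reversed to -0.081, and H3K4Me1 was -0.046, 0.57 and -0.19. With 6 kb windows 298 gene starts were higher and 275 lower, their median was -0.20, and H3K4Me1 was -0.0063 (all) and -0.32 (lower). At 1.5-fold, gene starts had 403 higher and 2097 lower calls, distal windows 12079 and 7998, and H3K4Me1 0.43 and -0.25. At 3-fold these were 29, 25, 1704, 350 and, for H3K4Me1 in higher windows, 1.03. With at least 100 tags, 59 gene starts (median -0.29) and 2787 distal windows (median reversed to -0.078) were higher, and H3K4Me1 over all was -0.067. Without a filter 839 gene starts were higher, 409 lower and the median was 0. With bins enriched in both, 6 kb windows, 3-fold or no filter, more gene starts were thus higher than lower. Beyond 10000 bp the distal median was 0.087 and H3K4Me1 -0.0074 (all) and 0.70 (higher). Stricter enrichment gave 0.042 and -0.033, no thinning a distal median of 0.11, and tags as deposited -0.26 (gene starts) and 0.12 (distal). Another seed and a pseudocount of 1 moved none of these 9 results beyond their limits. Of 148 named windows no called one changed sign, while 127 moved under the first scaling, 70 under the second, 53 with 1 kb and 15 with 6 kb windows. No paired analysis was possible because each time had 1 library. Depth limits calls to windows of 40 tags or more, and no interval covers variation between replicate libraries.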
